A study of Mus musculus with 23 samples.

Results

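The genes that present antigens to T cells were examined in skeletal muscle of mice after a 30 day spaceflight and in ground mice. They were the MHC class II chains H2-Aa, H2-Ab1 and H2-Eb1, the invariant chain Cd74, the MHC class I heavy chains H2-K1 and H2-D1, their light chain B2m, the class II transactivator Ciita and the peptide transporter Tap1. All probe sets whose platform annotation names 1 of these 9 genes and no other were taken, which gave 28 of the 22626 probe sets on the array. H2-Aa had 2 of them, H2-Ab1 3, H2-Eb1 1, Cd74 1, H2-K1 4, H2-D1 9, B2m 2, Ciita 2 and Tap1 4. Probe sets were taken by annotation alone, but the genes were chosen with earlier results of these data known.

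All animals were adult male C57BL/N6 mice, which the sample labels give as C57/BL6, and no engineered allele is given. The flown mice (BF) spent 30 days in microgravity aboard the Bion M1 biosatellite and were dissected some hours after landing. The habitat ground mice (BG) lived in the same habitat under earth gravity, and the facility mice (FC) lived in a standard animal facility. *Longissimus dorsi* (LD), a muscle along the spine, was measured in 5 BF, 5 BG and 5 FC samples, and tongue (TN), a muscle less bound to weight bearing, in 3 BF, 3 BG and 2 FC samples. Each of the 23 arrays held 1 sample, and no source used here says that the muscles share animals. If samples of a group are not separate animals, the p-values measure only the spread between these samples. The number of arrays limits the precision.

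MHC class I molecules sit on nearly every nucleated cell and show peptides from inside the cell to cytotoxic T cells. The peptides are cut by the proteasome and carried into the endoplasmic reticulum by the Tap transporter, where a heavy chain such as H2-K1 or H2-D1 binds them together with B2m. MHC class II molecules are made mainly by macrophages, dendritic cells and B cells, and show peptides from outside the cell to helper T cells. Cd74 holds the class II chains until they meet their peptides, and Ciita switches the class II genes on. Resting muscle fibres are known for very little MHC, so most class II RNA in muscle is usually attributed to other cells of the tissue. In RNA from whole muscle, fewer cells of a type and less RNA per cell cannot be told apart.

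The promoters are shown because the class I and class II genes are known to share regulatory boxes and, in these arrays, went up and down together. RefSeq promoter windows of 300 bases (build GRCm38.p6) were found for 6 of the 9 genes, namely H2-Aa, H2-Eb1, H2-K1, H2-D1, B2m and Tap1. H2-Ab1, Cd74 and Ciita are named only. The lines give a stretch of 130 bases around the first ATTGG on the gene's own strand, in lower case, with each searched motif in capitals. The stretches lie at chr17:34287852-34287981 (minus strand) for H2-Aa, chr17:34305698-34305827 (plus) for H2-Eb1, chr17:34000344-34000473 (minus) for H2-K1, chr17:35262908-35263037 (plus) for H2-D1 and chr2:122147524-122147653 (plus) for B2m.
H2-Aa: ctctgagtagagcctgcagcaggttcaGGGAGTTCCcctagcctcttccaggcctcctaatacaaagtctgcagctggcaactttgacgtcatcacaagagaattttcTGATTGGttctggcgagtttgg
H2-Eb1: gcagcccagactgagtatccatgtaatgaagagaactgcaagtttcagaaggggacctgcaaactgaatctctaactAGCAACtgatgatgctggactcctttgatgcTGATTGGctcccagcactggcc
H2-K1: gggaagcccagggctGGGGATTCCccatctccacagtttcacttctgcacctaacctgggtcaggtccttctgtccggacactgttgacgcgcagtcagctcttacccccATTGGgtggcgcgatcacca
H2-D1: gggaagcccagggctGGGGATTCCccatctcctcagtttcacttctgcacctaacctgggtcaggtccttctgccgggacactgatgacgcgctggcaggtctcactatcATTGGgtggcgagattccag
B2m: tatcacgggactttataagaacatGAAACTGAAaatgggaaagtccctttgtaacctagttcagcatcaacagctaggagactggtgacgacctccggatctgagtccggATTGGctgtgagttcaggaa

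Motifs were searched on both strands. ATTGG, the core of the NF-Y or Y box, was present in all 6 windows and in 37.4% of all 32851 promoters in the table. The longer TGATTGG, which contains it, was present in 5 of the 6 and in 7.82% of all. In H2-Aa and H2-Eb1 it lay on the gene's strand, and in H2-K1, H2-D1 and Tap1 it lay on the other. AGCAAC, letters of the X box that RFX binds, was found in H2-Eb1 and in 14.8% of all promoters. GGGNNTTCC, the NF-kB pattern, was found in H2-Aa, H2-K1 and H2-D1 and in 5.82% of all. GAAANNGAA, the interferon factor pattern, was found in B2m and in 8.56% of all. TTCNNNGAA, the STAT pattern, was in none of the 6 windows and in 8.3% of all. H2-K1 and H2-D1, which are close relatives, have the same letter at 114 of the 130 positions printed, so their motifs are not independent observations.

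Values are log2 expression as deposited, so a difference of 1 is a 2-fold change. The lowest value in the table was 2.24 and the highest 14.5. Each probe set has its own efficiency, so its values are compared between samples and never with those of another. Of the 28 probe sets, 15 had a mean at or above the median probe set (6.56). Probe sets whose names end in _x_at or _s_at can bind RNA of related genes. This touches most H2-K1 and H2-D1 probe sets, both of H2-Aa, H2-Ab1 1425477_x_at and 1450648_s_at, and Tap1 1449803_x_at.

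The array medians lay between 6.42 and 6.61. *Longissimus dorsi* arrays carried the muscle fibre genes at a summed level of 218000 to 241000, on the linear scale of the arrays, and tongue arrays at 124000 to 167000. The summed level of 11 epithelial genes was 56300 to 73300 in tongue and 377 to 490 in *longissimus dorsi*, so epithelial RNA was plentiful in the tongue samples alone. In every *longissimus dorsi* group 1 array was spread most widely around its group mean over all probe sets, namely replicate 1 of BF, replicate 5 of BG and replicate 1 of FC. Results that rest on these arrays are given with and without them.

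H2-Aa, the alpha chain of the class II molecule H2-A, was the only 1 of the 9 genes whose brightest probe set passed the test in *longissimus dorsi*, where it was lower in flown mice than in habitat ground mice. Its brightest probe set (1435290_x_at) read 9.42, 7.27, 8.59, 8.34 and 9.14 in BF replicates 1 to 5. In BG it read 9.52, 9.76, 9.25, 9.17 and 10.37, and in FC 9.55, 8.35, 8.92, 8.86 and 8.66. Of the 5 flown samples, 4 lay below all BG samples, while BF replicate 1 lay above 2 of them, so the groups overlapped. The fall in BF vs. BG was -1.06 on the log2 scale (standard error 0.307, 95% confidence interval -1.70 to -0.43, limma adjusted p = 0.0304), a 2.09-fold lower level.

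The other H2-Aa probe set (1452431_s_at) moved in the same way. It read 7.89, 6.31, 6.73, 6.76 and 7.53 in BF, and 8.08, 8.10, 7.55, 7.76 and 8.51 in BG. Here too the groups overlapped, by BF replicate 1 above 2 BG samples. The change was -0.95 (standard error 0.266, adjusted p = 0.0256). Both probe sets measure 1 gene, so they are not separate evidence.

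Facility mice also averaged below BG in H2-Aa of *longissimus dorsi*, at 8.87 beside 9.61 by its brightest probe set, but neither probe set passed the test. In FC vs. BG the changes were -0.75 (adjusted p = 0.13) for the brightest probe set and -0.80 (adjusted p = 0.0612) for the other. In BF vs. FC the brightest differed by -0.32 (95% confidence interval -0.95 to 0.32, adjusted p = 0.708). Both comparisons against BG share its 5 arrays.

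**Figure D1:**
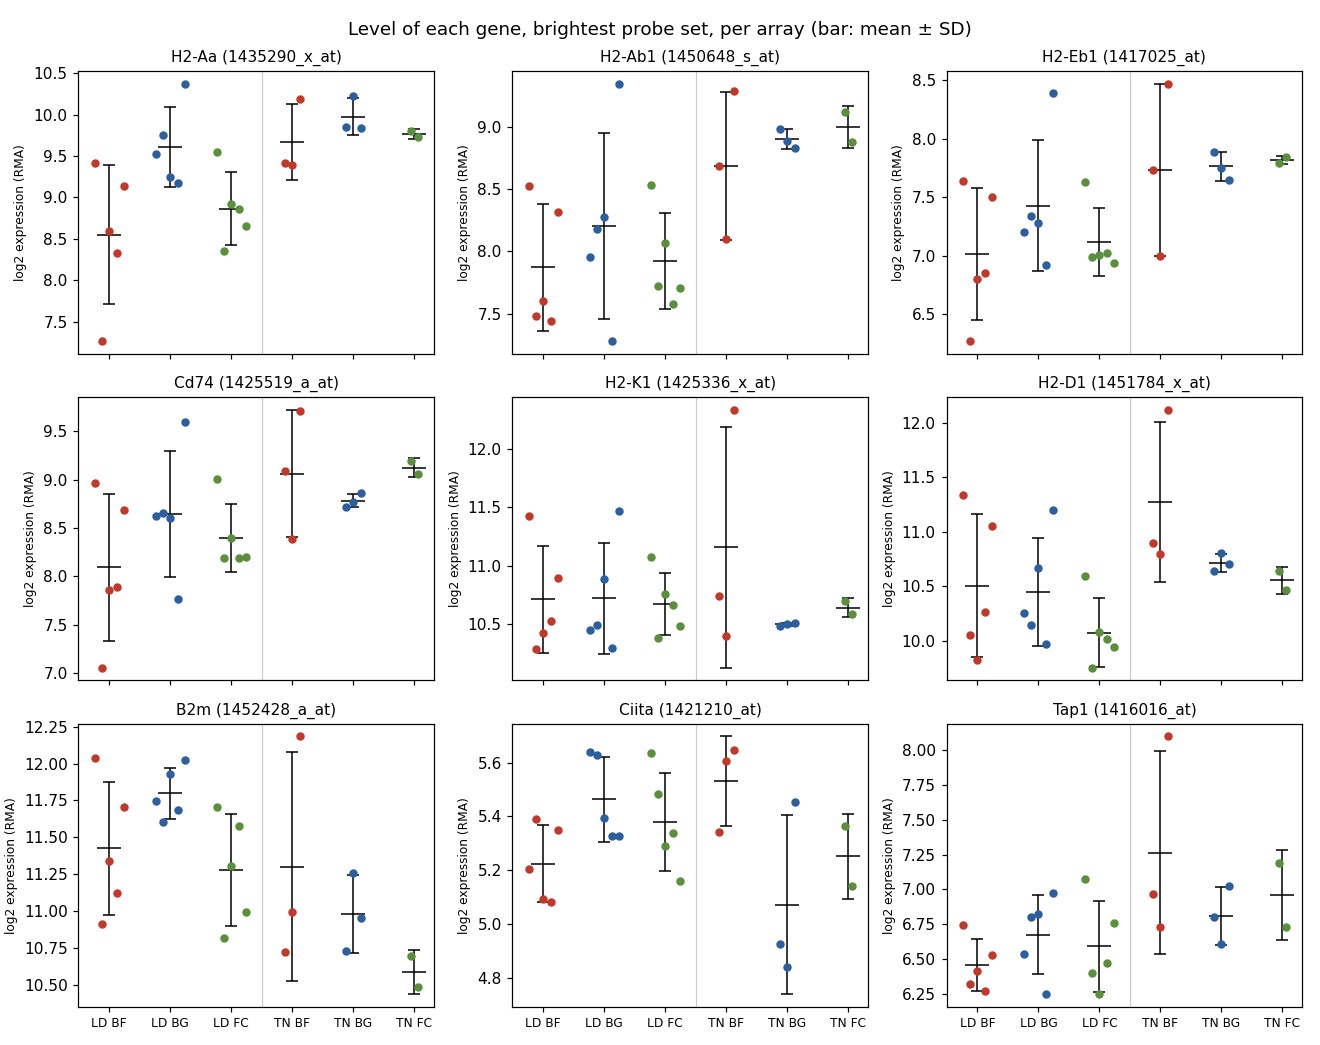
Level of the 9 genes on 23 arrays, log2 expression of the brightest probe set on the y axis and the 6 groups of muscle by housing on the x axis (red BF, blue BG, green FC; points in replicate order, black bars mean ± SD, 2 to 5 arrays a group). H2-Aa in LD averages 8.55 in BF and 9.61 in BG, and the highest point of H2-K1 at 12.33 is tongue BF replicate 3.

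The call for H2-Aa depended on single arrays although the direction did not. Over the 23 fits that leave out 1 array, the change of the brightest probe set ranged from -1.28 to -0.74, and the adjusted p from 0.011 to 0.0794. The call was lost without BF replicate 2, 3 or 4 or BG replicate 1, 2 or 5, with *longissimus dorsi* fitted alone (adjusted p = 0.0608) and without moderation (adjusted p = 0.063). For the other probe set it was lost without BF replicate 2, 3 or 4 or BG replicate 1 or 2 and without moderation, with adjusted p up to 0.0728. Without the 3 widely spread arrays the brightest changed by -1.09 (adjusted p = 0.0105).

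The other class II chains did not pass the test. H2-Ab1, the beta chain that pairs with H2-Aa, read 8.53, 7.48, 7.60, 7.45 and 8.32 in BF and 7.96, 8.18, 8.28, 7.28 and 9.35 in BG (1450648_s_at), with BF inside the wider range of BG. The difference was -0.33 (95% confidence interval -0.94 to 0.28, adjusted p = 0.524). H2-Ab1 1425477_x_at differed by -0.27 (adjusted p = 0.428) and 1451721_a_at by -0.47 (adjusted p = 0.355). H2-Eb1, the beta chain of H2-E, had a mean of 7.02 ± 0.561 in BF, of 7.43 ± 0.561 in BG and of 7.12 ± 0.288 in FC (SD, n = 5 each), with a BF vs. BG difference of -0.41 (limma adjusted p = 0.372). C57BL mice are known to lack a working alpha chain for H2-E.

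Cd74, the invariant chain, read 8.97, 7.05, 7.86, 7.89 and 8.69 in BF and 8.62, 8.66, 8.60, 7.76 and 9.60 in BG. Of the flown samples, 3 lay below 4 of the 5 BG samples, and the difference was -0.56 (95% confidence interval -1.21 to 0.10, adjusted p = 0.29). Ciita, the transactivator of class II genes, averaged 5.22 in BF and 5.46 in BG (1421210_at) and differed by -0.24 (adjusted p = 0.218). Both Ciita probe sets lay below the median of all probe sets.

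The class I heavy chains stayed near each other in BF and BG. H2-K1 (1425336_x_at) read 11.42, 10.29, 10.42, 10.53 and 10.90 in BF and 10.45, 10.49, 10.89, 10.30 and 11.47 in BG. The means differed by -0.01, with a 95% confidence interval of -0.59 to 0.57 (adjusted p = 0.992). H2-D1, by its brightest probe set (1451784_x_at), differed by 0.06 (95% confidence interval -0.53 to 0.64, adjusted p = 0.927). B2m, the light chain, averaged 11.43 ± 0.45 in BF and 11.80 ± 0.173 in BG (SD, n = 5 each) and differed by -0.37 (limma adjusted p = 0.346). Tap1, 1 of the 2 chains of the peptide transporter, differed by -0.22 (adjusted p = 0.549).

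A dim H2-D1 probe set was the third to pass. It (1451934_at) read 4.10, 3.72, 3.57, 3.81 and 3.69 in BF and 4.10, 4.36, 4.10, 4.12 and 4.33 in BG. Of the flown samples, 4 lay below all BG samples and BF replicate 1 lay at the level of the lowest. The change was -0.42 (standard error 0.112, adjusted p = 0.0203), and the call was lost without BF replicate 3 or 5 or BG replicate 2, with adjusted p of 0.0504 to 0.0598. The other 8 H2-D1 probe sets ranged from -0.08 to 0.29 in the same comparison and did not pass, so the test was passed by 1 of the 9 probe sets of this gene.

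In all, 3 of the 28 probe sets (10.7%) passed the adjusted p in LD BF vs. BG, beside 10.2% of all probe sets. All 3 were lower, beside 3.83% of all that passed and were lower, and 1 also changed by more than 2-fold, beside 0.424%. The median change was -0.105 over the 28 and -0.0276 over all. None of the 28 separated BF from BG without overlap, beside 6.98% of all. The share that passed was near that of the array as a whole. After quantile normalization within each muscle, 2 H2-D1 probe sets (1425614_x_at and 1450170_x_at) passed as higher beside the same 3, and with array weights 1 of them (1425614_x_at) did.

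**Figure D2:**
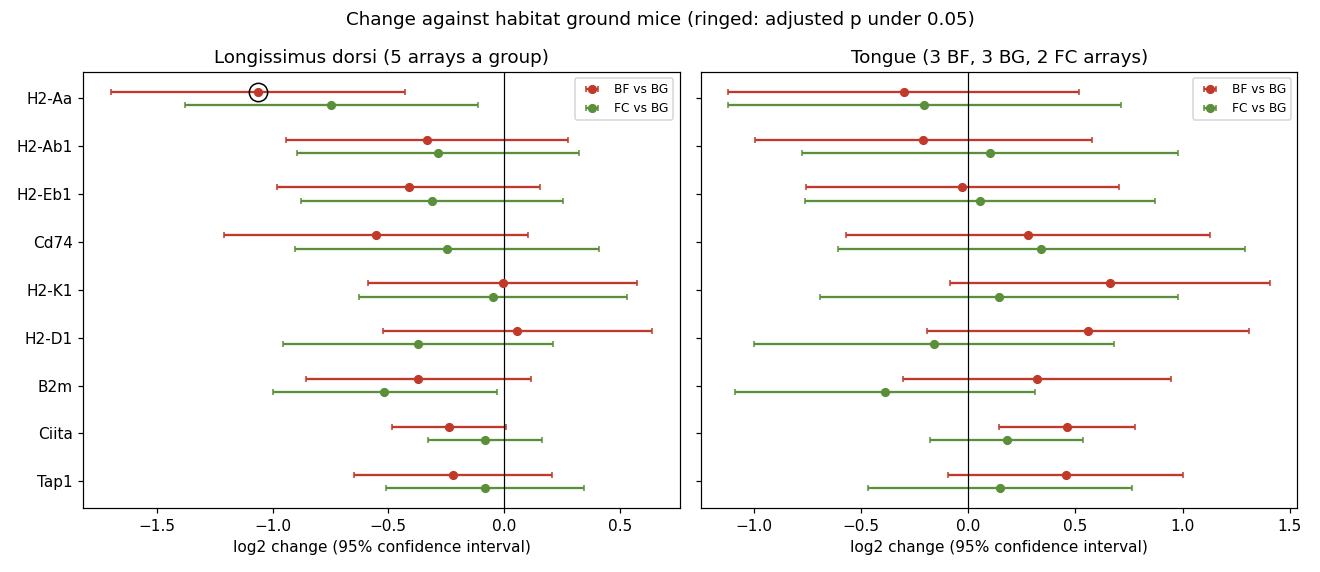
Log2 change against BG of the brightest probe set of each gene, in LD (left) and tongue (right), with 95% confidence intervals from limma (red BF vs. BG, green FC vs. BG; a ring marks an adjusted p under 0.05). The ringed value is H2-Aa in LD at -1.06, and the intervals of all 9 genes but Ciita span 0 in tongue BF vs. BG.

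Between the ground groups of *longissimus dorsi* (FC vs. BG), which tests the habitat itself, 0 of the 28 passed in limma, beside 8.95% of all, and 4 had an unadjusted p under 0.05. These were both H2-Aa probe sets, B2m at -0.52 (adjusted p = 0.173) and the dimmer Ciita probe set (1421211_a_at) at -0.29 (adjusted p = 0.149), all lower in FC. None separated the groups, beside 5.76% of all. The H2-Aa probe set 1452431_s_at passed, again lower in FC, without BF replicate 1 or 2, BG replicate 3 or FC replicate 1, and without the 3 widely spread arrays. In BF vs. FC 0 passed in limma, beside 3.66% of all, 2 had an unadjusted p under 0.05, both of H2-D1 and in opposite directions, and none separated the groups, beside 5.16%.

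In tongue no member passed the test in flown mice, but 1 flown sample stood far above the others. H2-K1 read 10.74, 10.40 and 12.33 in the BF replicates, 10.48, 10.50 and 10.51 in BG, and 10.70 and 10.58 in FC. The third flown sample lay above all other tongue samples, which stayed within a narrow range. H2-D1 read 10.90, 10.80 and 12.12 in BF and 10.64 to 10.80 in BG, and B2m 10.73, 11.00 and 12.18 in BF and 10.73 to 11.26 in BG, with the same sample on top. Tap1 read 6.97, 6.73 and 8.10 in BF and 6.80, 6.61 and 7.02 in BG.

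The mean changes in tongue BF vs. BG were 0.66 for H2-K1 (95% confidence interval -0.09 to 1.41, adjusted p = 0.394) and 0.45 for Tap1 (adjusted p = 0.432). Without BF replicate 3 they were 0.08 and 0.04. H2-Aa differed by -0.30 (adjusted p = 0.776) and Cd74 by 0.28 (adjusted p = 0.806). Ciita read 5.34, 5.60 and 5.65 in BF and 4.92, 4.84 and 5.45 in BG, a difference of 0.46 (adjusted p = 0.147). It rose to 0.65 (adjusted p = 0.0271) without BG replicate 3, the highest BG sample, and passed in no other alternative fit.

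In limma 0 of the 28 passed in tongue BF vs. BG, beside 0.826% of all, and 2 had an unadjusted p under 0.05, both of Ciita and both higher. A single probe set, a dim one of Tap1 (1449803_x_at), separated the groups, beside 18.5% of all. In FC vs. BG 0 passed, beside 9.45%, with 0 at an unadjusted p under 0.05, and 8 separated the 2 facility samples from BG, 4 each way, beside 44.8%. In BF vs. FC 0 passed, beside 2.24%, 1 had an unadjusted p under 0.05 (B2m, 0.71, adjusted p = 0.302), and 4 separated the groups, all higher in BF, beside 37.8%.

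The muscles were compared in their response to flight by the difference of the BF vs. BG changes, LD minus tongue. In limma 0 of the 28 passed, beside 0.172% of all, and 2 had an unadjusted p under 0.05, both of Ciita. For its brightest probe set the difference was -0.70 (95% confidence interval -1.10 to -0.30, adjusted p = 0.153). For H2-Aa it was -0.76 (standard error 0.501, adjusted p = 0.559), so the fall in *longissimus dorsi* was not shown to differ from tongue.

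Between the muscles of ground mice (BG and FC together), 12 of the 28 passed, beside 64.3% of all. Of these 8 were higher in *longissimus dorsi*, beside 41.4% of all, and 4 lower, beside 22.9%. When each array was centred on its median, 11 passed as higher and 1 as lower, and after quantile normalization within each muscle 7 and 2, so the split depended on the scaling. Only H2-D1 1452544_x_at separated the muscles without overlap, beside 28.4% of all.

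The brightest H2-Ab1 probe set and both of H2-Aa were lower in *longissimus dorsi* than in tongue. H2-Ab1 (1450648_s_at) averaged 8.21 in LD BG and 7.92 in LD FC against 8.90 and 8.999 in tongue, a difference of -0.88 (standard error 0.258, adjusted p = 0.00503) that passed without any 1 array. H2-Aa passed with -0.63 (adjusted p = 0.0456) and -0.58 (adjusted p = 0.0344), but its brightest probe set kept the call in 8 of the 23 fits that leave out 1 array and the other in 16, and neither did with arrays centred on their medians (adjusted p = 0.0754 and 0.0635). The other 2 H2-Ab1 probe sets, at 0.03 (adjusted p = 0.888) and -0.42 (adjusted p = 0.165), did not pass. Neither did H2-Eb1 at -0.52 (adjusted p = 0.0631) or Cd74 at -0.43 (adjusted p = 0.177). Without the 3 widely spread arrays H2-Eb1 differed by -0.70 (adjusted p = 0.00304) and Cd74 by -0.63 (adjusted p = 0.0188). These arrays include BG replicate 5 and FC replicate 1, the highest of their *longissimus dorsi* groups in both genes. Leaving them out lowers the *longissimus dorsi* mean, so these calls are no separate support.

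B2m was higher in *longissimus dorsi*, by 0.75 (standard error 0.206, adjusted p = 0.00306) and 0.60 (adjusted p = 0.0182) for its probe sets. Ciita was higher by 0.26 (adjusted p = 0.034) and 0.44 (adjusted p = 0.00134), while the brightest H2-Ab1 probe set and both of H2-Aa were lower. Of the H2-D1 probe sets, 1452544_x_at was higher by 0.78 (adjusted p = 7.32e-05) and 1427651_x_at by 0.43 (adjusted p = 0.00176), and both calls were kept without any 1 array. Another H2-D1 probe set, 1451683_x_at, passed as lower (-0.55, adjusted p = 0.0493), but kept the call in 8 of the 23 fits that leave out 1 array and lost it with arrays centred on their medians (adjusted p = 0.0878) and after quantile normalization (adjusted p = 0.0621). A dim pair of Tap1 probe sets was higher by 0.21 and 0.19, and the brightest of Tap1 and all of H2-K1 did not pass. The call of Tap1 1449803_x_at was lost in 9 of the 23 fits (without LD BG replicate 1 or 3, LD FC replicate 1, 2 or 5, TN BG replicate 2 or 3 or either TN FC sample, adjusted p up to 0.102), after quantile normalization (adjusted p = 0.0646) and with array weights (adjusted p = 0.0518). That of Tap1 1420274_at was lost without TN FC replicate 2 (adjusted p = 0.0528), and that of the dimmer B2m probe set 1449289_a_at without TN BG replicate 1 or TN FC replicate 2 (adjusted p = 0.0521 and 0.0665). That of the brightest Ciita probe set was lost in 7 (without LD BG replicate 1 or 2, LD FC replicate 1 or 2, TN BG replicate 1 or 2 or TN FC replicate 2, adjusted p up to 0.17). The epithelium that tongue holds moved with this comparison, and its part was not tested.

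**Figure D3:**
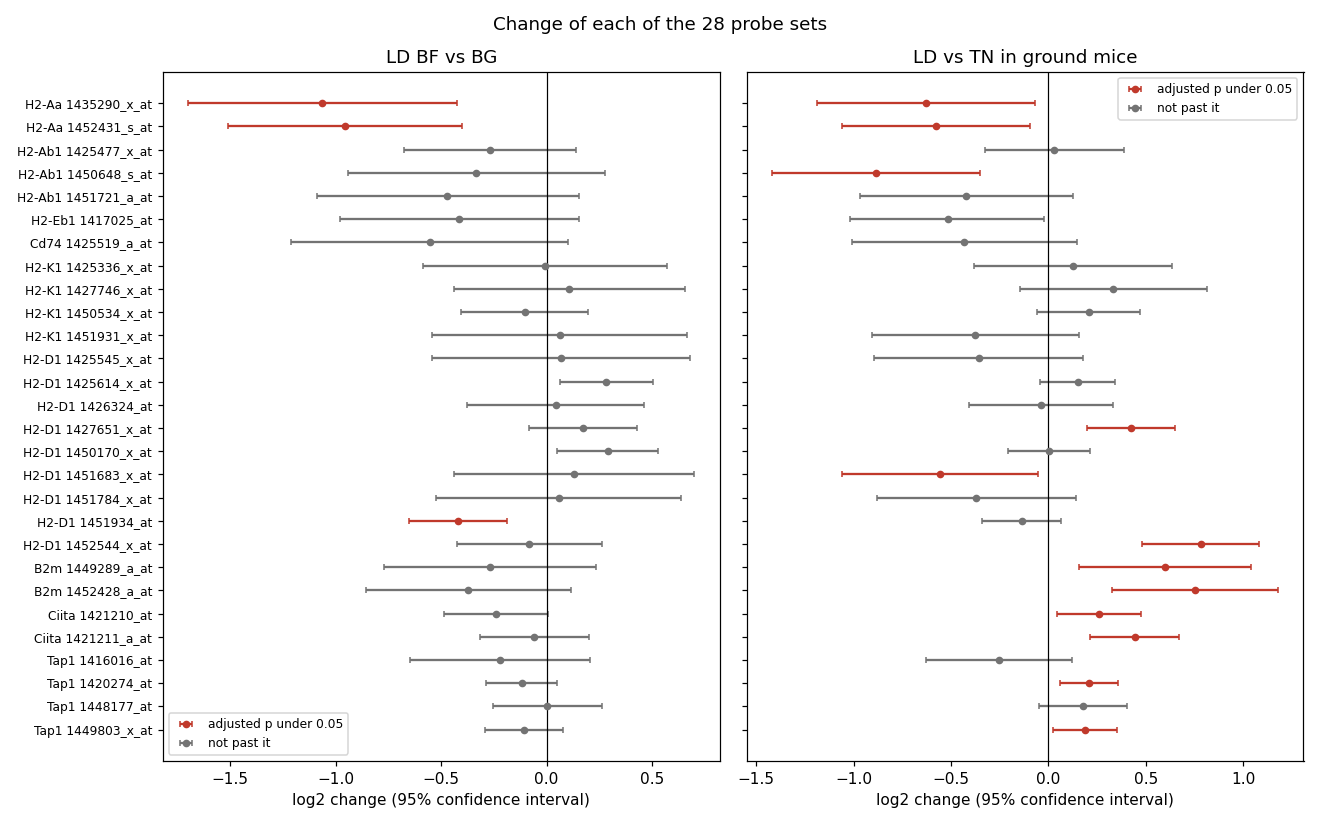
Log2 change of each of the 28 probe sets with 95% confidence intervals, in LD BF vs. BG (left) and in LD vs. tongue of ground mice (right), red where the adjusted p was under 0.05. On the left 3 points are red, the 2 of H2-Aa and a dim H2-D1 probe set, and on the right 12 are red, with H2-D1 on both sides of 0.

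Across arrays the genes rose and fell together within groups. Taking each array as its deviation from its group mean, over 23 arrays, H2-Eb1 and Cd74 went together with Pearson r = 0.957 and Spearman rho = 0.831, and H2-K1 and H2-D1 with r = 0.934 and rho = 0.97, the latter pair having probe sets that may share RNA. Class I and class II genes went together as well, for example Cd74 and H2-K1 with r = 0.841 and rho = 0.82. The probe set of Ciita did not follow the others, with r from 0.00691 (H2-Eb1) to 0.162 (B2m) and 0.36 with Tap1. It lay below the median of all probe sets, and whether it lies above background is not known. A low r may therefore not reflect Ciita RNA. These are descriptions, since the arrays share their RNA quality, cell makeup and normalization.

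In most groups a single sample led the pattern. BF replicate 1 was the highest of its *longissimus dorsi* group for 8 of the 9 genes, BG replicate 5 for 8 and FC replicate 1 for 9, against 25.1%, 27.4% and 22% of all genes. In tongue, BF replicate 3 was the highest for 9 of 9, against 32.5% of all genes. BG replicate 4 of *longissimus dorsi* was the lowest of its group for 8 of 9, where the share of all genes was not computed. Most of the 9 genes varied together, so they are not separate observations in these counts.

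**Figure D4:**
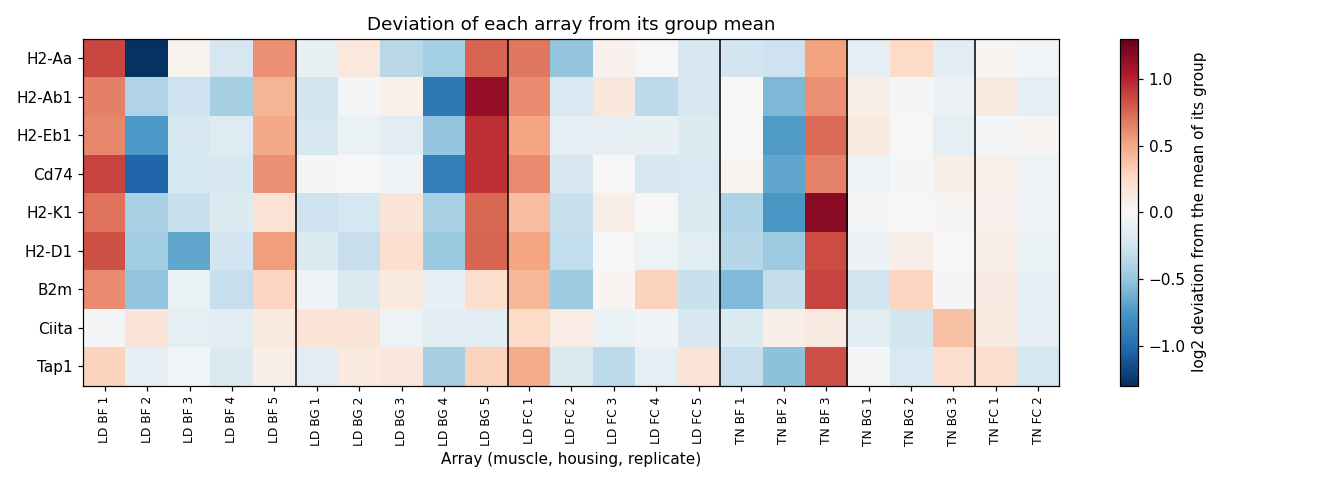
Deviation of each array from the mean of its group, on the log2 scale (red higher, blue lower), for the brightest probe set of the 9 genes (rows) on 23 arrays (columns, black lines between groups). All 9 genes lie above the group mean in LD BF 5, LD FC 1 and TN BF 3, and 8, all but Ciita, in LD BF 1 and LD BG 5, while the row of Ciita stays pale, at -0.23 to 0.38.

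In *longissimus dorsi*, macrophage genes were highest in the same samples. The summed level of 21 macrophage and monocyte markers was 11600 in BF replicate 1 and 3600 to 8020 in the other flown samples of *longissimus dorsi*. In BG it was 24900 in replicate 5 and 6720 to 10800 in the others, and in FC 8960 in replicate 1 and 4140 to 5930 in the others. Pan-leukocyte genes followed, at 3120 in BG replicate 5 and 885 to 1240 in the other BG samples. In the third flown tongue sample the macrophage sum was 8790, beside 7740 and 7800 in the other flown samples and 10500 to 11800 in BG. This sample, the highest of all tongue samples in class I RNA, lay below every tongue BG sample in the macrophage sum. Its pan-leukocyte sum was 1200, beside 1130 to 1310 in tongue BG. Its sum of T and NK cell markers was 427, the highest of the tongue samples, beside 333 to 391 in the others. The part of these cells in its class I RNA was not tested.

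Of the 21 macrophage markers 0 passed in limma in LD BF vs. BG, and their median change was -0.609, beside -0.0368 over all 12393 genes with 1 probe set each. In LD FC vs. BG 3 were lower, beside 2.19% of all genes, namely the lysozyme Lyz2 (-1.14, adjusted p = 0.0195), Ms4a7 (-1.02, adjusted p = 0.038) and the chemokine receptor Ccr2 (-1.03, adjusted p = 0.0412), and the median was -0.669. Of 9 pan-leukocyte genes 0 passed in BF vs. BG (median -0.441), and Cd53 was lower in FC vs. BG (-1.16, adjusted p = 0.0319). BG replicate 5 had the highest sum of both lists in its group, and these changes against BG were not fitted without it. Cd53 read 9.215 there, 6.584 to 7.348 in the other BG samples and 5.846 to 6.72 in FC. The part of these cells in the change of H2-Aa was not tested.

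Other cell markers gave the following counts in LD BF vs. BG, where 6.06% of the 12393 genes were higher and 4.48% lower. Of 8 dendritic cell markers, Itgae, an integrin chain, was lower (-0.57, adjusted p = 0.00434) and the median was -0.248. Their summed level was 508 in BF replicate 1 and 322 to 382 in the other flown samples of *longissimus dorsi*, 1040 in BG replicate 5 and 358 to 455 in the other BG samples, and 405 in FC replicate 1 and 375 to 398 in the others. These are the samples highest in class II RNA, but not every marker followed the sum. Itgae and the dendritic cell integrin Itgax were the highest of their group in none of them. Among the BG samples Itgax was lowest in replicate 5, at 5.028. In the third flown tongue sample the summed level of dendritic cell markers was 433, beside 389 and 391, and 403 to 466 in tongue BG. Of 9 B cell markers none passed (median -0.102), and of 11 T and NK cell markers the pore-forming protein Prf1 was higher (0.33, adjusted p = 0.0402). Of 12 endothelial markers 2 were higher, Tie1 and Cdh5. Of 11 epithelial genes none passed, and of 14 muscle fibre genes the calcium release channel Ryr1 was higher. Summed B cell markers spanned 529 to 2050 in BF, 530 to 2630 in BG and 388 to 2210 in FC of *longissimus dorsi*, and were highest in BF replicate 1, BG replicate 1 and FC replicate 2. The first of these was also the flown sample highest in class II RNA, and the other two were not the highest of their groups. Cd79a, a defining B cell gene, lay between 4.51 and 5.33 in *longissimus dorsi*, and Itgax between 4.95 and 5.45.

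Genes with the most similar course were named by Pearson r to the mean of the standardized members. For class II with Cd74 over the 15 *longissimus dorsi* arrays they were Shisa5 (0.964), the macrophage growth factor receptor Csf1r (0.961), Pltp (0.956), Dact1 (0.953) and the complement protease C1s1 (0.949). On deviations over 23 arrays they were Efhd2 (0.931), Scpep1 (0.924), Shisa5 by 2 probe sets (0.923 and 0.92) and Grn (0.921). For the class I genes they were Npc2 (0.949), Ccnd2 (0.932), Vcam1 (0.909), Coro1b (0.903) and Id4 (0.9) in *longissimus dorsi*. On deviations they were Lgals3bp (0.923), Shisa5 (0.9), Ccnd2 (0.896), Ifi27l2a (0.872) and Dhx58 (0.857), of which the last 2 are known as interferon-induced. In the third flown tongue sample Ifi27l2a read 10.93, beside 8.13 and 8.70, and the interferon-induced proteasome chain Psmb9 read 8.30, beside 6.42 and 6.20, with a like order for Dhx58 (6.20, beside 5.22 and 5.19).

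Of 58 other genes of the pathway 7 (12.1%) passed in *longissimus dorsi* of flown mice against BG, beside 10.5% of all genes, with 3 higher and 4 lower. Of 13 genes that supply class I peptides, the editing chaperone Tapbpl was higher (0.37, adjusted p = 0.0111), and the immunoproteasome chain Psmb10 (-0.31, adjusted p = 0.0335) and the chaperone Calr (-0.35, adjusted p = 0.0384) were lower. Of 9 further class I and class Ib heavy chains, H2-M3, which binds bacterial peptides, was lower (-0.44, adjusted p = 0.0212). None of 10 class II partners passed, among them H2-DMa and the protease Ctss, and none of 9 co-stimulation genes. H2-Ea, the alpha chain that C57BL mice do not make in working form, read 7.09 to 7.98 in *longissimus dorsi*, and 7.28, the lowest BG value, in BG replicate 5.

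Of 17 regulators, the interferon factor Irf2 (0.55, adjusted p = 0.0137) and the NF-kB subunit Rela (0.39, adjusted p = 0.0122) were higher, and the interferon gamma receptor chain Ifngr1 was lower (-0.42, adjusted p = 0.0329). Ifngr1 was lower in flown mice in tongue too (-0.76, adjusted p = 0.0225), beside 0.508% of all genes. There it read 8.44, 8.32 and 8.12 in BF and 9.313, 9.003 and 8.849 in BG without overlap, beside 18.5% of all probe sets. In LD FC vs. BG 3 of the 58 passed, beside 8.07% of all genes that were higher and 2.19% lower. The disulfide isomerase Pdia3 (-0.64, adjusted p = 0.0119) and the protease Ctsl (-0.36, adjusted p = 0.0411) were lower and Nfyc, a subunit of NF-Y, was higher (0.31, adjusted p = 0.0117).

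Between the muscles of ground mice 23 of the 58 genes were higher in *longissimus dorsi* and 13 lower, beside 41.8% and 24.5% of all genes. The regulators had 10 genes higher in *longissimus dorsi* and 3 lower of 17. The largest was Ifngr2, higher by 2.32 (adjusted p = 2.27e-09). Peptide supply genes had 3 higher and 5 lower of 13, with Pdia3 lower (-1.23, adjusted p = 4.39e-08), and class II partners 3 higher and 3 lower of 10, with the thiol reductase Ifi30 lower (-1.12, adjusted p = 2.6e-06). Class I and class Ib chains had 4 higher of 9, Hfe, H2-Q10, Cd1d1 and Mr1. Co-stimulation genes had 3 higher and 2 lower of 9, with the adhesion protein Icam1 lower (-1.29, adjusted p = 1.67e-06).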

How the data were processed

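The authors hybridized total RNA to Affymetrix Mouse Genome 430A arrays and deposited log2 expression values per probe set, made in Partek by RMA, which corrects the background, sets all arrays to common quantiles and summarizes probes by median polish. RMA compares arrays on a common distribution, so a shift of all genes would be removed. The deposited values of 22626 probe sets on 23 arrays were used with no filter. Gene symbols came from the platform annotation (20380 probe sets with 1 gene, 691 with several, 1555 with none), and 3 probe sets that name a member beside another gene were left out.

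One linear model with 6 groups was fitted in limma 3.58.1 (R 4.3.3) with 17 residual degrees of freedom and eBayes (prior 5.12), with Benjamini-Hochberg adjustment across the whole array. A probe set passed at an adjusted p under 0.05. In simulated data 94% of probe sets changed by 1 in LD and 86% in tongue were recovered. Those probe sets were picked at random and given independent noise, so the rates are not those of the members. Most members varied together across arrays. All member probe sets are named. Each gene of 13 further lists stands by its brightest probe set, and up to 4 genes a list with the smallest adjusted p are named, besides markers. The 5 genes of highest Pearson r were taken as similar. H2-Ea, Psmb9, Ctss, H2-DMa, Cd79a, Itgax and the values of similar genes in single arrays were chosen after their values were seen. The members and lists were chosen with earlier results of these data known. Alternatives were fits of each muscle alone, no moderation, trend and robust moderation, quantile normalization within a muscle, median centring, brighter probe sets, 1 probe set per gene, array weights, a replicate block and leaving out each array. Leaving out the widely spread arrays was added after the data were seen.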

Additional observations from a re-analysis of the deposited data

Results flagged for a closer look

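Of 84 sets of 5 *longissimus dorsi* arrays tested for a single distant array (28 probe sets in 3 groups), 4 held one, and about 1 in 20 are found by chance. Facility replicate 1 stood above the other 4 facility samples in H2-Ab1 1425477_x_at (5.919, the others 5.595 to 5.686), in H2-Eb1 (7.629, the others 6.94 to 7.021) and in Cd74 (9.011, the others 8.189 to 8.401). Habitat ground replicate 5 stood above its group in H2-Eb1 (8.39, the others 6.921 to 7.343). The tongue groups were too small for this test.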

How the results depend on the processing

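In LD BF vs. BG the count of passing member probe sets was 3, and became 1 without moderation, 5 after quantile normalization within each muscle, 1 with 1 probe set per gene, and 0 to 3 when each array was left out in turn. In LD FC vs. BG it was 0, and became 1 under quantile normalization, with the brighter probe sets, with the replicate block and without the widely spread arrays (H2-Aa 1452431_s_at each time), and 0 to 1 when each array was left out. In tongue BF vs. BG it was 0, and 0 to 1 when each array was left out. In LD vs. tongue of ground mice it was 12, and became 7 with the brighter probe sets, 4 with 1 probe set per gene and 7 with the replicate block, and 5 to 13 when each array was left out. It was 18 without the widely spread arrays. For the difference between muscles it was 0, and became 1 with array weights (Ciita) and 0 to 1 when each array was left out. The cause of these moves was not tested, apart from the smaller number of probe sets and, in LD vs. tongue, the replicate block. The fit with the replicate block sets each group at the level of replicate 1 of its muscle. Its LD vs. tongue values therefore compare replicate 1 of the muscles, not the group means, and are no check of the main fit. All 7 that passed with the block in LD vs. tongue were higher and 0 lower. There H2-Ab1 1450648_s_at had -0.63 (limma adjusted p = 0.122), the brightest H2-Aa probe set -0.05 (adjusted p = 0.92), H2-D1 1451683_x_at -0.17 (adjusted p = 0.697), and the Tap1 probe sets 1449803_x_at and 1420274_at 0.25 and 0.26 (adjusted p = 0.0933 and 0.0896). In LD BF vs. BG 1 probe set passed as higher with the block (H2-D1 1450170_x_at) beside the 3 lower. H2-Aa 1452431_s_at had 0.12 (limma adjusted p = 0.759) in LD vs. tongue with the replicate block, beside -0.58 between the group means in the main fit. Deviations of samples of the same muscle and number in different groups had a median r of 0.103 (-0.218 to 0.545 over 22 pairs, 11 of them over 0.1). For the same muscle and different numbers the median r was -0.046 (-0.469 to 0.32 over 74 pairs, 17 of them over 0.1). No label pairs the samples by number, and whether same-numbered samples share their handling was not tested. Over the 82 values on single probe sets and all alternatives, 2554 kept their direction and side of the threshold or stayed unpassed, 90 lost the call and 12 gained it. Of the 2554, 2178 had passed in neither fit, and 56 of these changed sign. The 2554 therefore do not measure how often a call was kept. Median centring shifted all probe sets by 0.097 in LD vs. tongue. Background signals were not used here, so whether dim probe sets such as H2-D1 1451934_at and those of Ciita lie above background is not known.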
